A study of Mus musculus with 8 samples.

Results

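Klra1, Klra4, Klra7 and Klra8 encode Ly49 receptors, and they are 4 of the 2000 genes of the deposited table and 4 of its 8 Ly49 genes. They were chosen by their own values in these cells, as the Ly49 genes that stood out in natural killer (NK) cells and, for Klra4, in tumour cells. Their levels across cell types are therefore given as a description with no test. The cells came from tumours of Hepa1-6, a mouse hepatoma line, whose dissociated cells were captured in droplets and sequenced singly from the 3′ end of their transcripts. The labels give 4 groups: unedited (WT) tumours with intraperitoneal PBS, unedited tumours with an antibody against PD-1, and Soat1-edited tumours with either. The titles name the edited tumours KO and the genotype field a knockdown, and neither the clone, the strain nor the age of the animals is given in the sources used here. A cDNA entry and an oligo entry per group were counted as 1 sample. Nothing in the sources used here maps the 53528 cells to the groups, so no effect of editing or antibody on these genes could be measured.

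Ly49 receptors are lectin-like proteins on mouse NK cells and on some T cells, and they bind MHC class I molecules or relatives of these on the cells that the NK cell meets. Inhibitory members such as Ly49A (Klra1) and Ly49G (Klra7) carry a tyrosine motif that recruits phosphatases. Activating members such as Ly49D (Klra4) and Ly49H (Klra8) lack it and signal through the adaptor DAP12, encoded by Tyrobp. Ly49H is known for its recognition of a protein of mouse cytomegalovirus. Each NK cell is known to express its own small selection of these genes, so that a tissue holds many NK cells with different combinations.

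All 4 genes lie on the minus strand of chromosome 6, within 343144 bases of the GENCODE M21 annotation of GRCm38 that hold 10 Klra gene models, of which 3 are pseudogenes. Klra4 spans chr6:130043731-130067271, Klra8 chr6:130115226-130129898, Klra7 chr6:130218605-130233322 and Klra1 chr6:130363917-130386874. No other annotated gene overlaps them on either strand. Since the members are close relatives, the last 500 bases of the longest transcript of each, the end that a 3′ library reads, were compared with all other Klra transcripts in windows of 100 bases. No window of Klra1, Klra4 or Klra8 occurred unchanged in another gene. Of 401 windows of Klra7, 23 occurred in the pseudogene Klra13-ps, so a part of the Klra7 reads could fit either.

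The promoters of Klra4 and Klra8, the pair found together most often in NK cells, and of Klra7 are shown for their likeness. Their windows were 79.9% to 86.6% identical to one another over their aligned bases. Each runs from 250 bases before the start site to 50 after it, 5′ to 3′ on the minus strand, from RefSeq GRCm38.p6: chr6:130067222-130067521 for Klra4, chr6:130129849-130130148 for Klra8 and chr6:130233273-130233572 for Klra7. Capitals mark bases that differ from, or have no partner in, the Klra4 window.
Klra4: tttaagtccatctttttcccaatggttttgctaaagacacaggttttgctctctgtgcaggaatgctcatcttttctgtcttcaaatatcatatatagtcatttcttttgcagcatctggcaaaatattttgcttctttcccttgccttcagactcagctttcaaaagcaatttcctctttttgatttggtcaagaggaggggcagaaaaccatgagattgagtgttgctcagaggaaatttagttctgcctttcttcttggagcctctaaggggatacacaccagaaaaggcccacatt
Klra8: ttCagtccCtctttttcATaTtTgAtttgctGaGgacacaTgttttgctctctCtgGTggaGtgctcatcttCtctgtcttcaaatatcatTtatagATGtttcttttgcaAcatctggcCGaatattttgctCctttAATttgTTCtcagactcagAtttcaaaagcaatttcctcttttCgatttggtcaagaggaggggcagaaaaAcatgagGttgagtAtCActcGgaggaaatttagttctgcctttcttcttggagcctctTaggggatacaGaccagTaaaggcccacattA
Klra7: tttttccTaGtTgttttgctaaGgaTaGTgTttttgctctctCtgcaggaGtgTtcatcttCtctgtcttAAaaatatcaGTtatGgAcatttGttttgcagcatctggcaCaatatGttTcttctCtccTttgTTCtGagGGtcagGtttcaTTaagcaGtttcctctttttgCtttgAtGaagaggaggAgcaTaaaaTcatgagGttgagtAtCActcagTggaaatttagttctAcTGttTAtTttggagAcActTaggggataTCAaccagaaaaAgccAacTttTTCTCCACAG
Of 299 aligned bases, Klra4 and Klra8 shared 259, or 86.6%. Klra7 was 79.9% identical to each of them. The Klra1 window, chr6:130386825-130387124, was 47.9% to 52.0% identical to the others over its aligned bases and is not shown.

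The cell names divide the table into 6 sets of 7569 to 11813 cells. In set 1 the UMI counts, the numbers of distinct molecules, could be recovered, and its 9370 cells held 1001 to 261833 UMIs. Sets 2 to 6 had been changed further on the natural log scale, every cell of them held values below 0, and the depth of their cells is unknown. Values are therefore given as UMIs and CPM, UMIs of the gene per 1000000 UMIs of the cells, in set 1, and as deposited log values in each set. Cell types were gated by marker genes with a deposited value over 0.5, none of them a Klra gene. A strict NK gate needed at least 2 of 7 NK markers (Ncr1, Klrb1c, Klre1, Klri2, Klrb1b, Klrb1f, Eomes) and no T-cell marker, and a wide one allowed Trbc1 and Trbc2. The strict gate held 126 cells, 0.235% of the table, and the wide one 360 cells, 0.673%. The strict NK cells expressed genes that neither the NK gates nor the CD8 T gate used, but not all more often than CD8 T cells. A value over 1 of Gzma, the granule protease granzyme A, was found in 81.0% and of the adaptor gene Tyrobp in 81.0%, against 7.68% and 2.71% of CD8 T cells. Fcer1g (65.9% against 3.89%) and Itgam (27.0% against 0.934%) went the same way. Gzmb (60.3% against 55.4%) and Prf1 (61.9% against 62.7%) were close. Nkg7 (66.7% against 90.8%) and Klrd1 (57.1% against 71.3%) were found less often in strict NK cells. Of Ncr1, itself a marker of the NK gate, which favours a difference, 31.0% of strict NK cells had a value over 1, and 0.224% of CD8 T cells. Transcripts of the tumour were also seen in them, since 60.3% had a value over 1 of Afp, the alpha-fetoprotein gene of the hepatoma cells, close to the 74.0% of CD8 T cells. Its part in the levels below was not tested.

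In set 1, all 4 members were at their highest in NK cells. The 12 strict NK cells had a median of 1819 UMIs each, and the 36 wide ones 2434.5. Intervals below are 95% exact Poisson intervals for counts and Clopper-Pearson intervals for shares, and both cover counting error only. Since 3′ counting gives at most 1 UMI per captured molecule, CPM were compared between genes without a correction for length.

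Klra8, the activating receptor Ly49H, reached 988 CPM in strict NK cells (interval 680 to 1387), from 4 cells with 15, 10, 4 and 4 UMIs. In the wide gate it stood at 530 CPM (403 to 683), with 59 UMIs in 13 of 36 cells. Klra4, the other activating receptor, reached 509 CPM (296 to 815), from 4 strict NK cells with 8, 4, 4 and 1 UMIs, and 575 CPM in the wide gate (443 to 734). Few cells carried most of the signal, and the remaining NK cells had none.

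The inhibitory members had lower values, with intervals that overlap those of Klra4. Klra1 stood at 329 CPM in strict NK cells (164 to 589), from only 2 cells with 8 and 3 UMIs, and at 332 CPM in the wide gate (234 to 458), where 6 cells held 17, 8, 6, 3, 2 and 1 UMIs. Klra7 also stood at 329 CPM in strict NK cells, but from 6 of 12 cells with 1 to 4 UMIs, and at 323 CPM in the wide gate (226 to 448), in 15 of 36 cells. In set 1, Klra7 was thus found in the most NK cells and Klra1 in the fewest, at the same summed level. The intervals of these shares overlapped, at 25.5% to 59.2% for Klra7 and 6.37% to 32.8% for Klra1 in the wide gate. The place of Klra7 did not hold over all 6 sets. There a deposited value over 1 was found in 144 of 360 wide NK cells for Klra4, 139 for Klra8 and 123 for Klra7. By the wide gate of set 1 the order of levels was Klra4, Klra8, Klra1, Klra7, where the interval of each overlapped that of its neighbour. Leaving out the cell with most UMIs of the gene lowered the strict level to 93.9 CPM for Klra1, 296 for Klra4 and 592 for Klra8, so these levels rest on single cells.

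**Figure D1:**
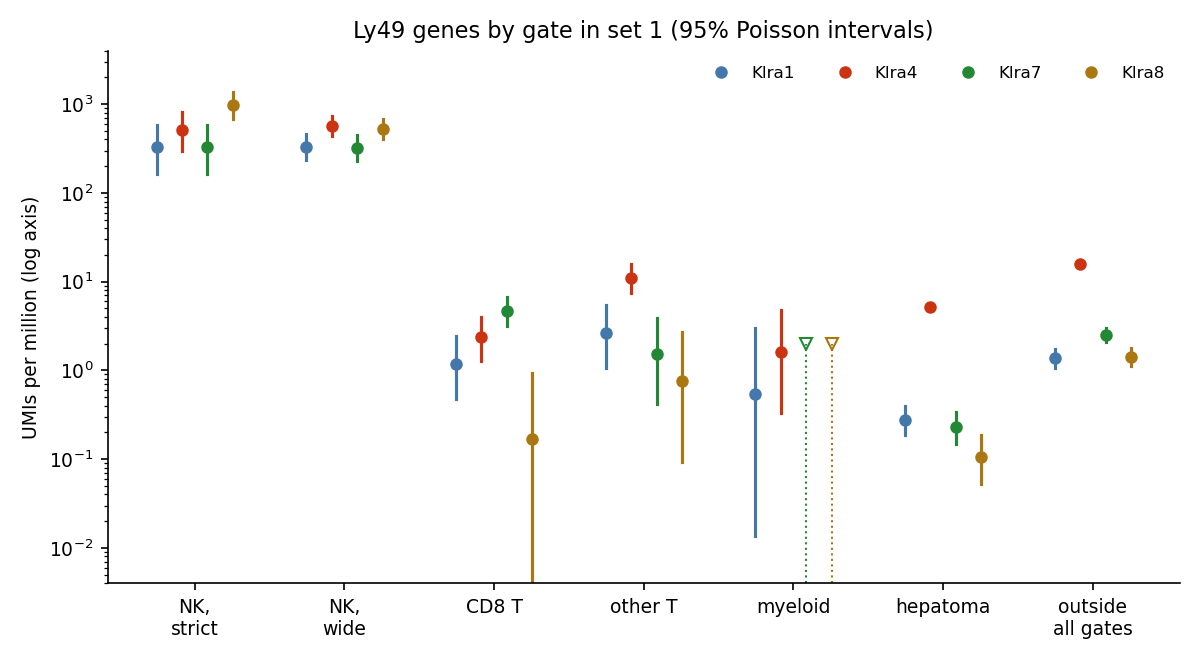
Level of each Ly49 gene in set 1 by gate, in CPM on a log axis, as points with 95% Poisson intervals; open triangles mark the upper limit where no UMI was found. Both NK gates stand above all other gates for all 4 genes, and in hepatoma cells Klra4 stands above the other members.

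Outside NK cells the members differed in where their few UMIs lay. The 964 CD8 T cells of set 1 held 28 Klra7 UMIs in 18 cells, 4.71 CPM (3.13 to 6.80), against 1 Klra8 UMI, or 0.168 CPM (0.00426 to 0.937). Klra1 and Klra4 stood at 1.18 and 2.35 CPM there. The 403 other T cells were higher in Klra4, with 29 UMIs in 17 cells or 11.0 CPM (7.38 to 15.8), than in Klra1 at 2.66, Klra7 at 1.52 and Klra8 at 0.760 CPM. Myeloid cells, a type that should lack these receptors, held 1 UMI of Klra1, 3 of Klra4 and none of Klra7 or Klra8 in 614 cells, where 0 UMIs allow up to 1.62 CPM at a limit of 3 counts.

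Set against CD8 T cells, the strict NK level was 280 times as high for Klra1 (interval 99.0 to 851), 216 times for Klra4 (100 to 474) and 69.9 times for Klra7 (31.4 to 145). For Klra8 the ratio was 5874 (983 to 238936), from 1 UMI in CD8 T cells. All 4 members were at least 2-fold above CD8 T cells on log2 of CPM plus 1, where 13.1% of the 2000 genes were in the strict gate and 15.0% in the wide one. Nothing is read from that count, since the same values chose the members. Klra7 was nearer to CD8 T cells than the other members were, and Klra4 was nearer to hepatoma cells, with an NK ratio of 98.7 (57.1 to 159) against 1191 to 9420 for the other members.

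A UMI was found in 41.7% of wide NK cells for Klra7, 36.1% for Klra8, 33.3% for Klra4 and 16.7% for Klra1, against 0.104% to 1.87% of CD8 T cells and 0% to 0.489% of myeloid cells. Median depths were 2434.5 UMIs for wide NK cells, 4485 for CD8 T cells and 2169.5 for myeloid cells. With every cell thinned to 1000 UMIs, which left out no cell, the wide NK shares were 33.3%, 9 of 36 cells, 27.8% and 16.7% in the same order, against 0% to 0.415% of CD8 T cells. The NK shares stayed far above the others at equal depth.

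Each gene could be followed over the 6 sets on the deposited scale. Means over strict NK cells ran from 0.41 to 0.92 for Klra1, 0.51 to 2.28 for Klra4, 0.34 to 1.13 for Klra7 and 0.82 to 1.24 for Klra8. CD8 T cells had means of 0.031 or less for every member in every set. The NK mean lay above the CD8 T mean in all 6 sets for all 4 members, as it did for 4.55% of the 2000 genes, and those genes include the members by their choice. The shifted values of undetected cells are part of these means: in set 2, where the Klra1 mean was 0.92, only 2 of 22 strict NK cells had a value over 1. The sets share an unrecorded processing step and may not be independent.

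In sets 2 to 6 the cells without a gene no longer sat at 0. A Klra1 value over 0.5 was held by 88.7% of wide NK cells of set 2 and 72.4% of set 6, against 16.7% in set 1, so that value does not mark detection there. A value over 1, settled after the values had been seen, was therefore taken as detected. Of the 324 wide NK cells of these sets, 11 had a Klra1 value between 0.8 and 1.2, against 1 for Klra4, 4 for Klra7 and 2 for Klra8, so the choice of the value weighs most on Klra1. In set 1 it gave the same numbers of wide NK cells as a UMI did, 6, 12, 15 and 13.

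By this value Klra8 was detected in 36.1%, 41.9%, 32.1%, 46.9%, 21.1% and 37.8% of the wide NK cells of sets 1 to 6. Klra4 was detected in 33.3%, 54.8%, 21.4%, 54.1%, 26.3% and 29.6%. Klra7 was detected in 41.7%, 33.9%, 17.9%, 38.8%, 28.9% and 33.7%. Klra1 was detected in 8.16% to 16.7% of the wide NK cells of sets 1, 2, 4, 5 and 6 and was the least often detected member in each of them. In set 3 its 5 values over 1 ran from 1.01 to 1.07 and did not stand apart from the values below 1, so detection there is uncertain. With a value over 1.2 as detected, Klra1 was found in no cell of set 3 and in 37 of the 360 wide NK cells in place of 42, and the other members in 144, 120 and 135 in place of 144, 123 and 139. Klra4 varied most between sets, with more than 50% of NK cells in sets 2 and 4 and at most 33.3% in the others. As the sets cannot be tied to the groups, nothing is drawn from this order.

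**Figure D2:**
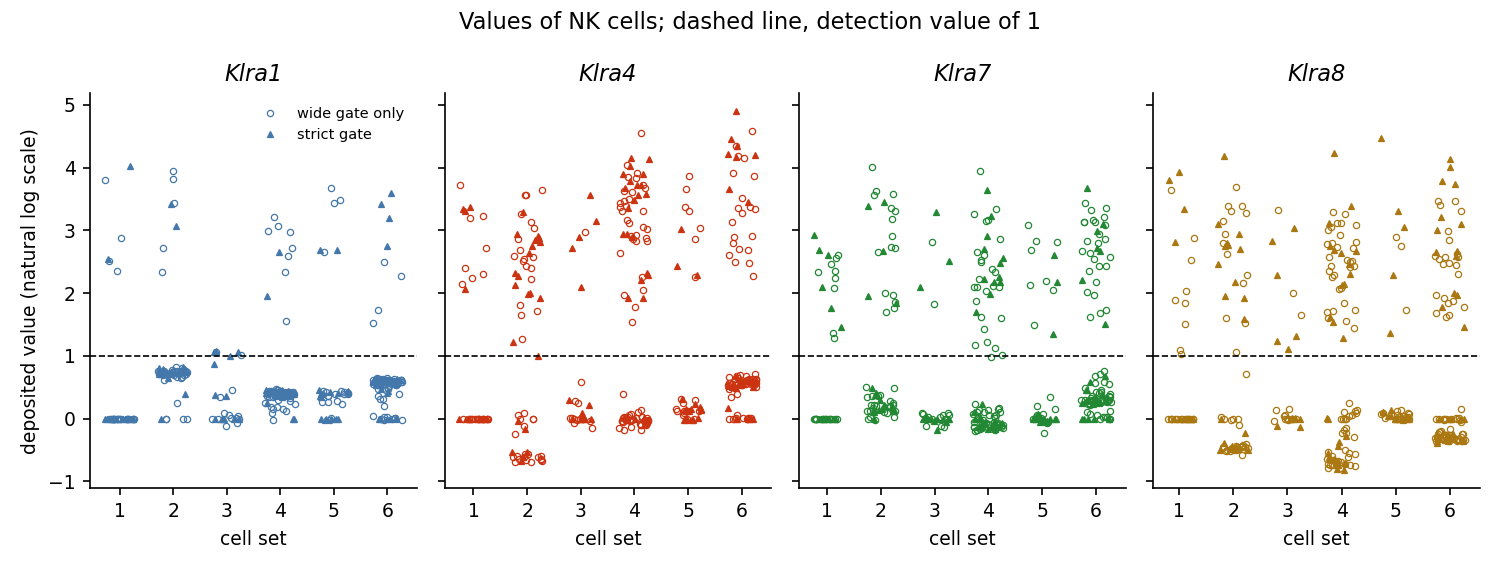
Deposited value (natural log scale) of each Ly49 gene in every NK cell, by set, with filled triangles for the strict gate and open circles for cells of the wide gate alone. The dashed line marks the value of 1; the low values shift away from 0 in several sets, and the 5 Klra1 values over 1 of set 3 lie between 1.01 and 1.07, next to values just under 1.

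Combinations were read from the 360 wide NK cells. None of the 4 members was detected in 132 cells (36.7%, interval 31.7 to 41.9), 1 member in 77, 2 in 89, 3 in 55 and all 4 in 7. By set, the share with none ran from 26.5% in set 4 to 57.1% in set 3, a spread that the interval does not cover. In set 1, by UMIs, 16 of 36 cells had no member, 4 had 1, 6 had 2 and 10 had 3. Cells without a member were not shallower in set 1, with a median of 2435.5 UMIs against 2418 in cells with one. Of the 132 cells with none, 31 had another Ly49 gene of the table, among them 20 with Klra9 and 11 with Klra3.

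The commonest combinations were Klra4 with Klra7 and Klra8, in 40 cells, and Klra4 with Klra8, in 36, and with a value over 1.2 as detected their order turned, to 36 and 40. Klra7 alone and Klra8 alone were found in 26 cells each, Klra4 with Klra7 in 22, Klra4 alone in 21 and Klra7 with Klra8 in 15. Klra1 without any other member was found in 4 of its 42 cells. All 16 possible combinations occurred.

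Klra4 and Klra8, both activating, were found together in 92 cells. Klra8 was detected in 63.9% of the 144 cells with Klra4 and in 21.8% of the 216 cells without it. The product of their single shares, summed over the sets, gives 58.5 cells, and the joint count exceeded the product in each of the 6 sets. Klra4 with Klra7 came to 73 cells against a product of 50.8, and Klra7 with Klra8 to 64 against 48.4, each also above in all 6 sets. Pairs with Klra1 are given for values over 1.2, which leave set 3 without Klra1. Klra1 with Klra4 then came to 22 cells against 15.2 and Klra1 with Klra7 to 19 against 12.9, above in the other 5 sets, and Klra1 with Klra8 to 17 against 13.6, above in 4. The pairs without Klra1 stayed above in all 6 sets at that value, and 134 cells had no member. Cells with none stood at 132 against a product of 79.6. The members were therefore shared unevenly over the gated cells, some with several and more than the product with none. The NK markers Klre1 and Klri2 also had a value over 1 in 54.8% and 22.7% of CD8 T cells. In set 1 the share without a member was 83.6% when 1 NK marker was needed and 0% when 3 were. The part of other lymphocytes within the wide gate was not tested. Differences in depth between cells raise joint detection of any genes, and in sets 2 to 6, where depth is unknown, their part was not tested.

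In the 126 strict NK cells the same pair led. Klra8 was detected in 39 of the 56 cells with Klra4, and in 16 of the 70 without. The combination of Klra4 with Klra8 alone was the commonest there, in 19 cells, and 43 cells had no member. The pair thus also stood out among NK cells without Trbc1 or Trbc2.

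**Figure D3:**
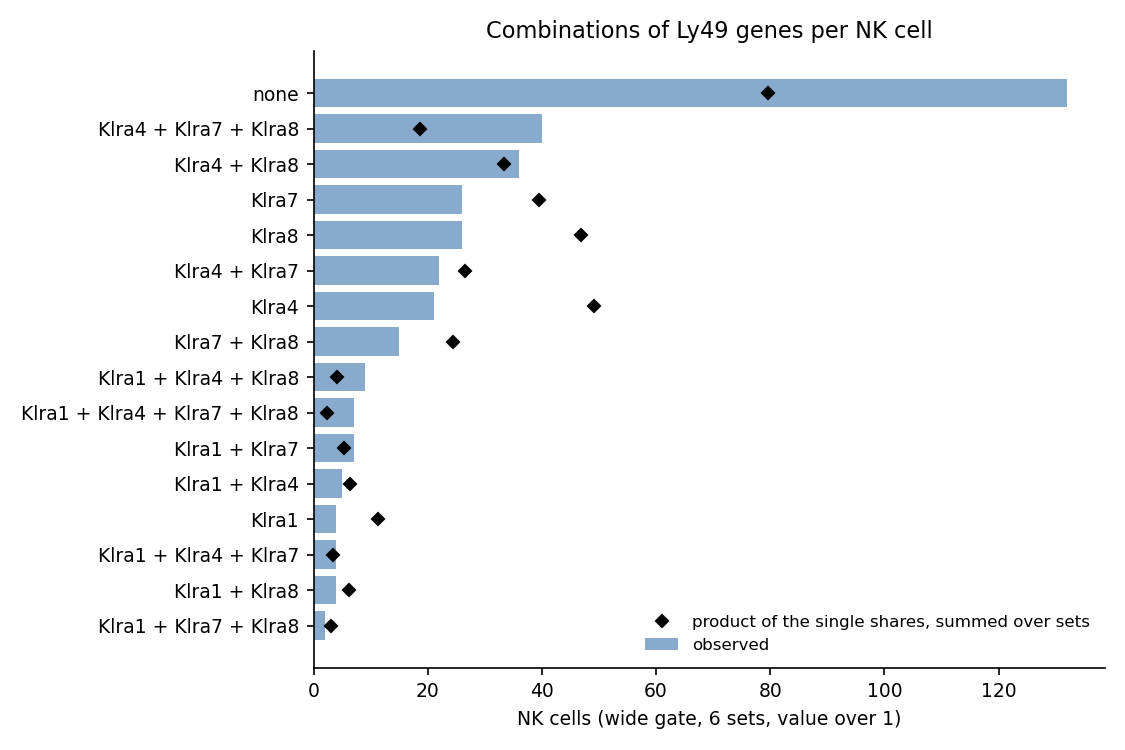
Number of wide NK cells of the 6 sets with each combination of the 4 genes (bars), and the number given by the product of the single shares within each set, summed (diamonds). Cells with none and cells with Klra4, Klra7 and Klra8 exceed the product, and cells with a single member fall below it.

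Other genes were then compared between wide NK cells with and without each member, set by set, a comparison added after the combinations had been seen. Of 1999 genes, 1.70% had a higher mean value with Klra4 in all 6 sets, 1.75% with Klra7 and 1.65% with Klra8, and 6.05%, 4.50% and 6.00% had a lower one. For Klra1, set 3 was left out, since no cell of it clearly had the gene, and 1.05% of genes were higher and 7.25% lower in all of the other 5 sets (0.850% and 5.60% in all 6). Gzma was higher in all 6 sets beside Klra4, Klra7 and Klra8, with median differences of 1.19, 1.33 and 1.27 natural log units, and in all 5 beside Klra1, with 0.93. Tyrobp, which encodes the adaptor of the activating members, was likewise higher, by medians of 0.42, 0.52 and 0.39 units beside those 3 and 0.62 beside Klra1. The inhibitory Klra1 and Klra7 were no exception, and the difference between members was not tested. Klrb1c, which encodes NK1.1 and is a gate marker, was higher in these sets beside all 4. In set 1, Gzma, Tyrobp and Klrb1c were also 31.3, 212 and 253 times as high in strict NK cells as in CD8 T cells. The part of T cells within the wide gate in the differences beside the members was not tested.

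Of the 11 cytotoxicity genes in the table, Gzma included, 5 were higher in all 6 sets beside Klra4, 4 beside Klra7 and 5 beside Klra8, and 2 in the 5 sets beside Klra1. Ccl5, a chemokine, was higher beside Klra8 by 0.43 to 3.67 units and beside Klra4 by 0.24 to 2.41. Prf1, the pore-forming protein perforin, was higher beside Klra1 by 0.46 to 1.42 units in the 5 sets. Gzmc, another granzyme gene, went the other way, lower by a median of 0.60 beside Klra4, 0.64 beside Klra7 and 0.52 beside Klra8.

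Of 5 genes listed for type 1 innate lymphoid cells, the tissue-resident relatives of NK cells, 3 were lower in all 6 sets beside Klra4, 4 beside Klra7, 4 beside Klra8 and none beside Klra1. Cxcr6, a homing receptor of resident cells, was lower by a median of 0.19 beside Klra4, 0.19 beside Klra7 and 0.25 beside Klra8. Klrc1, the inhibitory receptor NKG2A, was lower in all 6 sets beside Klra4 (median 0.69 lower) and Klra7 (0.36 lower), while the lectin gene Klre1, a gate marker, was higher beside both. Trdc, the constant gene of the delta T-cell receptor, had a value over 1 in 11.1% of cells with Klra4 and 1.85% of those without, and in 5.76% and 5.43% with and without Klra8. Its part in these differences, and that of other T cells within the wide gate, was not tested.

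**Figure D4:**
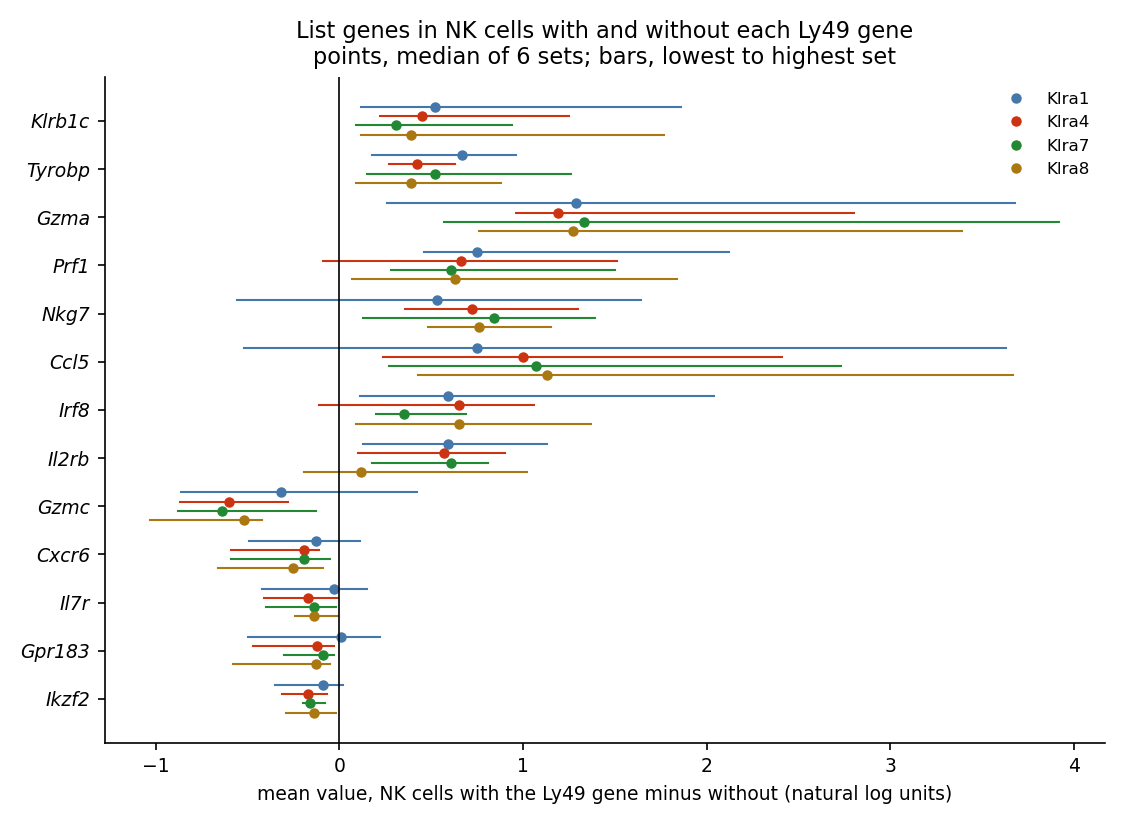
Difference in mean deposited value (natural log units) between wide NK cells with and without each Ly49 gene, for list genes that were higher, or lower, in all 6 sets beside at least 3 members; points are medians over the sets and bars run from the lowest to the highest set, with set 3 included for Klra1. Gzma lies to the right of 0 for all 4 genes, and Gzmc and Cxcr6 lie to the left for Klra4, Klra7 and Klra8.

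The other Ly49 genes of the table behaved differently from one another. Klra9 reached 269 CPM in strict NK cells and 4.37 in CD8 T cells of set 1, and Klra3 150 and 9.08. Klra3 was the Ly49 gene with most UMIs in CD8 T cells, 54 in 27 cells, and in myeloid cells, 21 in 19 cells. Klra5 was not detected in the 36 wide NK cells, which allows up to 26.9 CPM at 3 counts, while CD8 T cells held 18 UMIs in 6 cells. With the sets pooled, a Klra5 value over 1 was found in 8 of 360 wide NK cells (2.22%), 7 of them in set 6, and in 0.302% of CD8 T cells. Its mean in strict NK cells was above that of CD8 T cells in 0 of 6 sets. Klra6 had 1 UMI in wide NK cells. Beside Klra8, Klra9 was higher in all 6 sets (median 0.58 natural log units) and so was Klra3 (0.16).

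Genes of related function were set against CD8 T cells in the same way, in strict NK cells of set 1. In these 12 cells 1394 of the 2000 genes had no UMI, which allows up to 89.8 CPM, so the median log2 ratio over all genes was -0.59 as fitted and 4.18 with those genes at that limit. Counts below hold such genes at the limit, a choice made after the values had been seen, and give no fold where CD8 T cells were under it. By that rule 262 of all genes were at least 2-fold above and 103 at least 2-fold below.

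Of 9 other lectin receptors of NK cells, 4 were at least 2-fold above and 1 at least 2-fold below, with a median log2 ratio of 0.29. As 5 of the 9 are gate markers, the gate itself set much of that count: of the other 4, Klrg1 was above, at 19.8 times (7.64 to 43.2), and Klrc1 below. Klrb1c stood 253 times as high (136 to 481) and Klrb1f 44.5 times (4.60 to 223, from 2 UMIs), both gate markers. Klrc1 was at 0.120 of the CD8 T level (0.0146 to 0.435), and Klrd1, its partner chain CD94, at 0.972 (0.575 to 1.54). Of the 2 signalling partners, Tyrobp was 212 times as high (134 to 337). Zap70, a kinase of T-cell receptor signalling, was at 0.372 (0.0449 to 1.35). The 3 MHC class I genes of the table, the kind of ligand that these receptors bind, were within 2-fold of CD8 T cells, with H2-Q6 at 1.25, H2-K1 at 1.22 and H2-Q7 at 1.01 times.

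Of 11 cytotoxicity genes, 2 were at least 2-fold above and 1 below, with a median of -0.25 as fitted and 0.18 at the limit, so its sign depends on the zeros. Gzma was 31.3 times as high (27.2 to 35.9) and Ccl5 6.45 times (5.71 to 7.27). Gzmc and Gzmk had no UMI in strict NK cells, and for Gzmk, at 79.4 CPM in CD8 T cells, a difference was not detectable at this depth. In the wide gate Gzmc had 263 UMIs, of which 1 cell held 180. Of 9 maturation genes, 6 were at least 2-fold above and 1 below, with a median of 2.14, and without the gate marker Eomes 5 of 8 were above. Itgam, the CD11b of mature NK cells, was 83.8 times as high (31.3 to 205), and S1pr5, a receptor for tissue exit, had 3 UMIs in strict NK cells and none in CD8 T cells. Cx3cr1 had no UMI in strict NK cells, and Cd27 was at 0.370 (0.0447 to 1.34).

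Of the 5 genes of resident innate lymphoid cells, 1 was at least 2-fold above, 2 were below and 2 gave no fold. Il7r was 6.51 times as high (2.94 to 12.6), but all of its 9 UMIs lay in 1 cell, and over the sets its NK mean was above that of CD8 T cells in 1 of 6. Gpr183 was at 0.312 (0.00789 to 1.75), and Cxcr6, with no UMI, was at least 7.85-fold lower by the limit of 3 counts over the gate. Itga1 and Il2ra had no UMI either, where CD8 T cells stood at 56.0 and 57.7 CPM. Of 7 genes listed for CD8 T cells with Ly49 receptors, 2 were at least 2-fold above and 4 below. Ccr7 was 9.74 times as high (4.79 to 17.8), all of its 11 UMIs in 1 cell. Pdcd1, which encodes PD-1, and Tox, a regulator of exhausted T cells, had no UMI in strict NK cells and were at least 8.60-fold and 3.48-fold lower by the same limit.

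Among CD8 T cells of all sets together, Klra7 was the member found most often, with a value over 1 in 69 of 10280 cells and 0.249% to 1.08% of each set. In set 6 Klra4 was found more often, in 0.599% of cells against 0.487%. CD8 T cells with Klra7 had a lower Pdcd1 value in all 6 sets, by a median of 0.62 natural log units (0.12 to 0.79), and a lower Havcr2 value, an exhaustion receptor, by 0.15. Of 1999 genes, 22.3% were lower in all 6 sets beside Klra7, so a lower value was common. Only 0.900% were higher in all 6, and these included Ccl5 (median 1.11), Gzma (0.77), Gzmb (0.69), Tyrobp (0.55), Klre1 (0.40) and Ccl4 (0.32). In set 1, 9 of the 18 CD8 T cells with a Klra7 UMI carried at least 2 NK markers, against 37.4% of all CD8 T cells. Their depth was close to that of the rest, with a median of 4957.5 UMIs against 4451.5, and both had a median of 5 hepatoma markers per cell.

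Of the 17 other T cells with Klra4 in set 1, none had an NK marker above 0.5, where the gate allows 1. Of them 16 had neither Cd4 nor Foxp3, as did 312 of all 403. In 5 sets with enough such cells, Gzma differed by a median of 0.91 natural log units between cells with and without Klra4 (-0.05 to 1.91), Prf1 by 0.39 (-0.05 to 0.91) and Pdcd1 by -0.47 (-0.67 to -0.11). In set 1 their depth was a median of 10764 UMIs per cell, that of the rest 4182, and they carried a median of 7 hepatoma markers against 6. After thinning, 3 of the 403 cells had Klra4, or 0.744%, equal to the share with Klra1. The part of tumour RNA and depth in these UMIs was not tested.

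Klra4 UMIs were also found in hepatoma cells. Of its 1397 UMIs in set 1, strict NK cells held 17 and wide NK cells 64, while 541 lay in hepatoma cells, gated by at least 8 of 16 hepatoma markers, at most 2 myeloid markers and no value over 0.5 of an NK marker, a T-cell marker or Ptprc. A further 563 lay in 172 cells outside all gates that had at least 4 hepatoma markers and no NK or T marker, 1 of which held 67. That number of markers does not set tumour cells apart, since 79.0% of CD8 T cells also had at least 4. The gated hepatoma cells held 38.7% of all Klra4 UMIs. They were also the deepest gate, with 104923832 UMIs of all genes, against 50427761 in cells outside all gates. They held 23.4% of Klra1 UMIs, 12.4% of Klra7 UMIs and 9.24% of Klra8 UMIs.

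In hepatoma cells Klra4 stood at 5.16 CPM (4.73 to 5.61), against 0.276 for Klra1, 0.229 for Klra7 and 0.105 for Klra8. It was thus raised there relative to the other members. By gate, its level in hepatoma cells was above that of CD8 T cells (2.35 CPM) and myeloid cells (1.62). It was below that of other T cells (11.0) and of cells outside all gates (15.7). In wide NK cells the counts of Klra1, Klra4, Klra7 and Klra8 were 37, 64, 36 and 59, and in hepatoma cells 29, 541, 24 and 11, so the ratio between members differed. Klra4 was found in 191 of 3737 hepatoma cells (5.11%, 4.43 to 5.87), against 0.489% of the shallower myeloid cells. After thinning to 1000 UMIs the shares were 0.401% and 0.163%, the latter from 1 cell.

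Its UMIs were concentrated. Of the hepatoma cells, 116 had 1 Klra4 UMI, 40 had 2 to 3 and 35 had 4 or more, up to 30, and these 35 cells held 60.4% of the UMIs. For the other members the highest count in a hepatoma cell was 2. The median depth was 30472 UMIs in cells with Klra4 and 22553 in the others. Over 4 equal groups of hepatoma cells in order of depth, the share with a UMI was 2.14%, 4.71%, 5.78% and 7.81%, while the level was 4.27, 6.57, 5.59 and 4.62 CPM. The share followed depth, and the level did not.

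Every set held such cells. A Klra4 value over 1 was found in 0.748%, 1.01%, 0.612%, 0.679%, 0.632% and 0.874% of hepatoma cells of sets 1 to 6, and a value over 0.5 in 1.51% to 2.97%. Klra1 had no hepatoma cell with a value over 1 in any set, and Klra7 and Klra8 had 1 each among 15652.

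Hepatoma cells with a Klra4 UMI in set 1 differed from those without in tumour genes. Of 1544 genes with at least 50 UMIs, 4.86% were at least 2-fold higher and 2.20% at least 2-fold lower, with a median log2 ratio of -0.09. Ranked by log2 of CPM plus 1, the 10 highest were Mt4, Prss22, Slc14a1, Serpine2, Sprr2h, Gsta1, Csn3, Phgr1, Ifit3b and Tff1. The urea transporter gene Slc14a1 stood at 41.9 against 7.18 CPM, a ratio of 5.83 (5.09 to 6.67). Mt4, a metallothionein gene of squamous epithelium, stood at 14.5 against 1.82 CPM, 7.98 times as high (6.24 to 10.2). Serpine2, a protease inhibitor gene, was 6.03 times as high (5.14 to 7.05), and the casein gene Csn3 4.72 times (3.97 to 5.59). Tff1, a secreted trefoil peptide of the stomach lining, stood at 115 against 30.5 CPM.

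The 5 lowest were Cyp2a4, Fabp1, Igf2, 9530003J23Rik and Serpinc1. Fabp1, the liver fatty acid binding protein and a hepatoma gate marker, stood at 22.2 against 86.3 CPM, a ratio of 0.258 (0.220 to 0.300). Serpinc1, the liver gene of antithrombin, was at 0.285 (0.180 to 0.430). Of the 16 hepatoma markers, none was 2-fold higher and 3 were 2-fold lower, Fabp1, Apoa2 and Slco1b2, while Afp (log2 0.45) and Alb (0.40) were slightly higher. The median log2 ratio over the 16 was 0.00, and cells with and without Klra4 had a median of 9 of these markers.

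These values changed with the number of Klra4 UMIs, classes added after the data were seen. Slc14a1 stood at 7.18 CPM in cells with none, 11.8 with 1, 72.2 with 2 to 3 and 95 with 4 or more. Tff1 stood at 30.5, 52.4, 188 and 220 CPM over the same classes, and Fabp1 at 86.3, 30.1, 12.4 and 9.97. Mt4, Gsta1 and Ifit3b were high in the last class alone, at 55.7, 24.0 and 19.9 CPM, and Ifit3b had no UMI with 1 to 3 of Klra4.

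**Figure D5:**
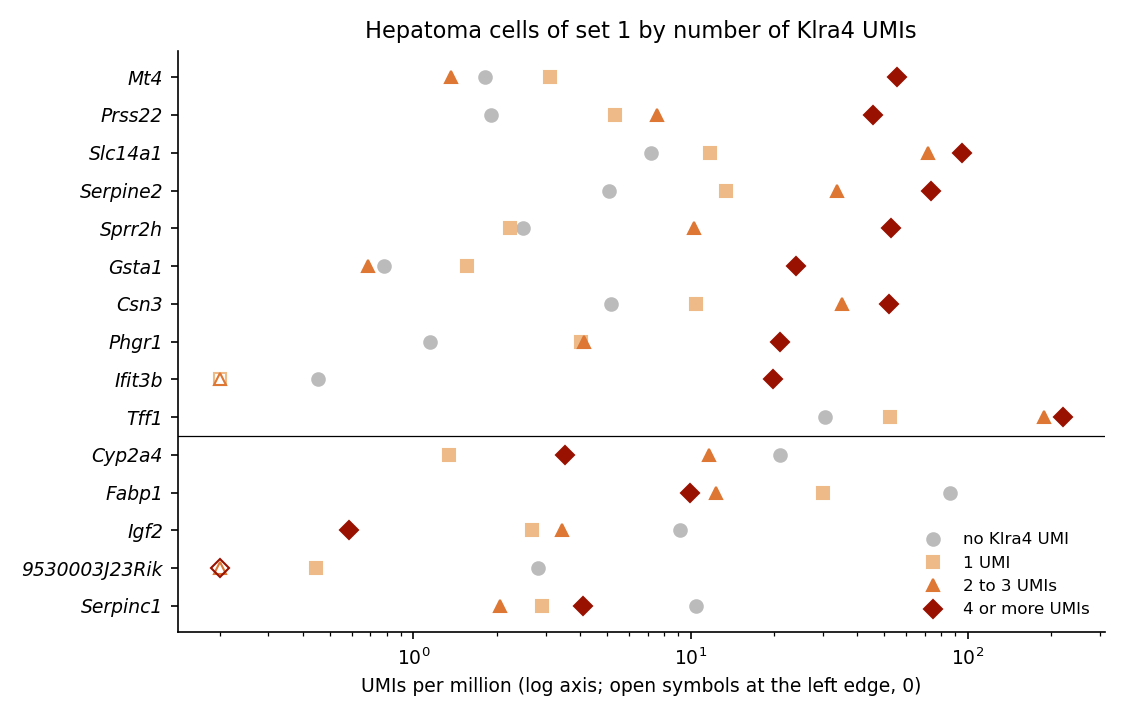
CPM on a log axis of the 10 genes highest (above the line) and 5 lowest (below it) in hepatoma cells of set 1 with Klra4, by the number of Klra4 UMIs in the cell; open symbols at the left edge are 0. Slc14a1, Serpine2, Csn3 and Tff1 step up with the number of Klra4 UMIs, and Fabp1 steps down.

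Sets 2 to 6, which the choice of these genes did not use, gave the same direction for most of them. These sets share an unrecorded processing step, so they may not be independent of one another. Whether that step drew on set 1 is not known, so they may not be independent of set 1 either. Between hepatoma cells with a Klra4 value over 0.5 and the rest, 9 of the 10 highest genes had a higher mean in all 5 sets, all but Ifit3b, where 11.3% of 1999 genes did. Tff1 was higher by 0.35 to 0.84 natural log units, Slc14a1 by 0.15 to 0.33 and Csn3 by 0.15 to 0.19. Of the 5 lowest, Fabp1, 9530003J23Rik and Serpinc1 were lower in all 5, as were 27.4% of genes. Genes picked after their values were seen were higher in all 5, among them the lysosomal protease gene Ctsl (0.77 to 1.00), Igfbp3 (0.61 to 1.05) and the growth factor gene Areg (0.38 to 0.78). Being so picked, they add nothing to the agreement above.

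Transcripts of NK cells were low in these cells with or without Klra4. In hepatoma cells of set 1 with and without Klra4, Nkg7 stood at 7.32 and 7.64 CPM, Klrd1 at 1.83 and 1.88 and Gzma at 1.96 and 1.32, against 970, 602 and 7120 in wide NK cells. The 7 NK markers summed to 4.05 and 3.46 CPM, against 2640 in wide NK cells, though the hepatoma gate itself limits them. A UMI of such a marker was found in 13.1% of the deeper cells with Klra4 and 8.04% of those without, and Trdc stood 2.41 times as high with Klra4 (1.14 to 4.64). Klra8, the partner of Klra4 in NK cells, had no UMI in the 191 cells, which allows up to 0.392 CPM against 0.113 in the other hepatoma cells, so a difference was not detectable. Klra7 had 11 UMIs there and Klra1 had 8. At 1.44 against 0.134 CPM, Klra7 was 10.8 times as high (4.37 to 26.0) as in hepatoma cells without Klra4, and Klra1 4.85 times (1.86 to 11.4).

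Over the 30 means of 5 gates in 6 sets, the genes whose mean value followed each member most closely were mostly NK genes. For Klra8 these were Gzma (Pearson r 0.986), Klrb1c (0.962), Irf8 (0.951), 4930515B02Rik (0.936) and Cma1 (0.932). Klra1 shared Gzma (0.969), Klrb1c (0.952), Cma1 (0.944) and Irf8 (0.937) with it and added Cd7 (0.944). Among those closest to Klra7 were Gzma (0.959), 4930515B02Rik (0.958), Eomes (0.954) and Klrb1c (0.941). Among the genes closest to Klra4 were Klrb1f (0.948), Gzma (0.936), Khdc1a (0.923) and Klrb1c (0.904). Klrb1c, Klrb1f and Eomes are gate markers, and with 6 NK means far from the other 24 these values describe little more than the difference between NK cells and the rest.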

How the data were processed

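Per the labels' protocols, 3′ libraries were made on the DNBelab C4 system. The authors aligned reads with STAR (2.7.2b, per the submitters' processing notes), and the series' design text names PISA for counting and barcodeRanks for choosing cells. The notes name GRCh38 and mm10, and which one served the table is not given in the sources used here. The deposited table holds natural log values: in set 1, the natural log of 1 plus UMIs per 10000. UMIs of set 1 were recovered from it, and 100% of nonzero values came out whole within 0.01 UMIs. All 53528 columns belong to no known sample. Scrublet (scanpy 1.11.5, expected rate 6%) called 68 cells of set 1 (0.726%), left out of UMI values. The cell names carry no barcodes, so shared barcodes could not be counted. Scripts used Python 3.11.15 and were tested on simulated data. Members, gates and lists were chosen with earlier results of these data known. Named are the members, the 5 genes most like each, 10 highest and 5 lowest genes beside Klra4, up to 4 genes per list by NK to CD8 T ratio, and the Ly49 family. Cells are no replicates of a sample, so no test was run. Alternatives covered gates, doublets, thinning, pseudocounts and detection. Chosen after the values were seen were detection by a value over 1 or 1.2, leaving set 3 out for Klra1, the classes of Klra4 UMIs, the comparisons of cells with and without a member, leaving out the top cell, and holding genes at 0 UMIs at the limit of 3 counts. A gene of the lists is not reported here.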

Additional observations from a re-analysis of the deposited data

Results flagged for a closer look

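Among 24 series of 6 set means, 4 members in 6 gates, 3 held a set far from the others, where chance flags about 1 in 20. The mean deposited value of Klra1 in CD8 T cells was 0.017 in set 4, that of Klra7 in other T cells was 0.042 in set 2, and that of Klra7 in hepatoma cells was 0.006 in set 4. All are small beside the NK means.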

How the results depend on the processing

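What moved these values is given by each setting alone, and the cause was not tested. Needing 1 NK marker gave 61 cells of set 1, with 40.8, 70.4, 40.8 and 122 CPM for Klra1, Klra4, Klra7 and Klra8, and 83.6% without a member. Needing 3 gave 6 cells, with 894, 1056, 650 and 2356 CPM and 0% without a member. Allowing Trbc1 and Trbc2 moved Klra8 to 530 CPM. A gate threshold of 1 gave 1061 CPM for Klra4 and 1447 for Klra8. Without the NK cell with most UMIs, Klra1, Klra4 and Klra8 stood at 93.9, 296 and 592 CPM. Klra4 in hepatoma cells, 5.16 CPM and 5.11% of cells, was 6.60 CPM and 6.22% with a threshold of 0.25, 3.72 and 3.91% with 1, and 7.88 and 6.52% with 4 hepatoma markers. The share was 2.01% for at least 2 UMIs and 0.401% after thinning. Over all results, 247 of 314 values under other settings stayed within the 95% counting interval about the reported value and 67 did not. The 48 NK ratios among them were varied only by the pseudocount or by a minimum of 10 UMIs. A pseudocount cannot turn the sign of a ratio, and the minimum repeated the reported values. Nothing is therefore read from their staying above 0 (lowest log2 4.53). No paired analysis was possible because the cells carry no replicate numbers and no group. With 12 strict NK cells in set 1, 1 UMI was worth 29.9 CPM.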
